A study of Mus musculus with 4 samples.

Results

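The V-ATPase members described here were 10 genes of the 16892 in the count table: *Atp6v1a*, *Atp6v1b1*, *Atp6v1b2*, *Atp6v1c2*, *Atp6v1e1*, *Atp6v1g1*, *Atp6v1g3*, *Atp6v0a4*, *Atp6v0c* and *Atp6v0d2*. They were chosen by name, as subunits of the vacuolar proton pump that fall into 5 tissue-restricted isoforms (*Atp6v1b1*, *Atp6v1c2*, *Atp6v1g3*, *Atp6v0a4* and *Atp6v0d2*) and 5 genes found in most cells (*Atp6v1a*, *Atp6v1b2*, *Atp6v1e1*, *Atp6v1g1* and *Atp6v0c*). The data were droplet single-cell RNA counts of 8880 cells from adult male FVB/NJ mice aged 10 to 12 weeks, for which no treatment or altered allele is named. Caput, corpus and cauda epididymis and vas deferens were dissected from 8 epididymides of 4 mice, the pieces of each region were pooled, and each region gave 1 library, so no region had a replicate. Sperm were washed out before dissociation, and the cells therefore represent the duct wall and its surroundings. The libraries held 1433 caput, 2325 corpus, 1616 cauda and 3506 vas deferens cells, with 4408989 to 10744928 UMIs each, where a UMI is a molecular tag that counts 1 captured transcript.

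The V-ATPase is a rotary proton pump of acidic organelles. Its V1 sector (subunits A to H) sits in the cytosol and hydrolyses ATP, its membrane V0 sector (subunits a, c, c″, d and e) carries the protons, and several subunits are encoded by a gene used in most tissues and a gene used by specialised acid-secreting cells of kidney, inner ear and bone. In the epididymis the clear cells, relatives of the renal intercalated cells, place the pump in their apical membrane and acidify the lumen, which keeps sperm quiescent during maturation and storage; the forkhead factor Foxi1 is known to drive V-ATPase genes in such cells.

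Levels below are UMIs of a gene per 1000000 UMIs of a group of cells (UPM), with exact 95% Poisson intervals in parentheses that cover counting error only. The protocol tags transcripts at their 3′ end, so a level does not grow with transcript length and was not divided by it. Cell types were those of the deposited annotation, which was clustered on these same counts. A contrast of clear cells with other cells is therefore a description, and with 1 library per region no test between regions was possible. Clear cells numbered 348 of 8880 (3.92%), with 73 from caput, 132 from corpus, 105 from cauda and 38 from vas deferens, and 1461705 UMIs in all. The annotation split them into 216 main clear cells, 78 Amylin-positive clear cells, found in caput and corpus, and 54 low-UMI clear cells. Of 8837 barcode sequences, 43 occurred in more than 1 library.

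Some cells went against the clear cell label, most of them in the vas deferens. The 5 clear cell markers (*Foxi1*, *Dmxl1*, *Car2*, *Ap1s3* and *Dab2*) were each highest in clear cells, though *Car2* had 207 UPM there and 170 UPM in basal cells. Summed, they reached 2356 to 3579 UPM in the main clear cells of caput, corpus and cauda. The 13 low-UMI clear cells of the vas deferens held 3 UMIs of these markers against 32 of 4 basal markers and 24 of 5 principal markers, and the 6 of the caput held none of the clear markers. Of the 32 basal marker UMIs, 4 were of *Itga6*, which was highest in endothelial cells. The 24 low-UMI clear cells of the corpus held 43 UMIs of clear markers (2383 UPM) and 83 of principal markers (4600 UPM). Among the 25 main clear cells of the vas deferens, a doublet caller marked 13. These held clear markers at 2730 UPM (2398 to 3096) and principal markers at 1371 UPM (1138 to 1637). The other 12 held clear markers at 508 UPM (332 to 744) and principal markers at 25964 UPM (24587 to 27399). Values for the vas deferens below are given with this in view. In the main clear cells elsewhere, summed principal markers stood at 228 UPM in caput, 2152 UPM in corpus and 849 UPM in cauda. Summed stromal markers were highest in caput there, at 959 UPM against 150 UPM in corpus and 77.8 UPM in cauda. In the Amylin-positive clear cells they stood at 570 UPM in caput and 508 UPM in corpus.

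The bases that precede the genes' start sites are shown for 3 tissue-restricted members with few CG pairs, for *Atp6v1c2*, which has many, and for *Atp6v1e1*, a gene of most cells, because these members share a cell type and not a base composition. They are RefSeq sequences of the GRCm38.p6 assembly, 250 bases upstream of each start in the direction of the gene. CG pairs and the forkhead core GTAAACA, searched on both strands, are in capitals.
Atp6v1g3 (chr1:138273488-138273737, plus strand): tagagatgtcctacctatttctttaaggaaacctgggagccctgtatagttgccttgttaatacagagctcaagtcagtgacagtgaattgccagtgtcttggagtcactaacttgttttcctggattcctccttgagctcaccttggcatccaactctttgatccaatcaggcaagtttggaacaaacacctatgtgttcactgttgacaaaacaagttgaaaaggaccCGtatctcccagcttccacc
Atp6v0a4 (chr6:38124587-38124836, minus strand): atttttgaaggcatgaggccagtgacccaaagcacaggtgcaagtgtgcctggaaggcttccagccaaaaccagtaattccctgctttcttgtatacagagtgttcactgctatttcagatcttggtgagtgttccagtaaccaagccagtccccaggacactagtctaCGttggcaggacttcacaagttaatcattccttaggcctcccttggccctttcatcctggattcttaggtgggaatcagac
Atp6v1b1 (chr6:83742767-83743016, plus strand): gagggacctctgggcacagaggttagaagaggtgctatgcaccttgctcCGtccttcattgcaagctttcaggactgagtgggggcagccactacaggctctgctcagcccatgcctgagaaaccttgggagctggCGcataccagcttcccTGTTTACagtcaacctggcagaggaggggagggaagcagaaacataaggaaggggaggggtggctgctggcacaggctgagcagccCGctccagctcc
Atp6v1c2 (chr12:17324731-17324980, minus strand): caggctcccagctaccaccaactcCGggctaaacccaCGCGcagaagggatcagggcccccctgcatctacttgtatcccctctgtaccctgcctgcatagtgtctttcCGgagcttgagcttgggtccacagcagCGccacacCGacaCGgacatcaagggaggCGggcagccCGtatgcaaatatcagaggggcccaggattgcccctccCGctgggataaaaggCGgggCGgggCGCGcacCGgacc
Atp6v1e1 (chr6:120822699-120822948, minus strand): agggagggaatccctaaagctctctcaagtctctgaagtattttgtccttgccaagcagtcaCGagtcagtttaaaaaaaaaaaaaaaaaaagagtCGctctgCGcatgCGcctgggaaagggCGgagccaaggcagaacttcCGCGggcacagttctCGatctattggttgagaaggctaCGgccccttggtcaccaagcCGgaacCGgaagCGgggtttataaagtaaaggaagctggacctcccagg

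Of the 10 members, 7 had an entry with such bases, in 9 windows; *Atp6v0d2*, *Atp6v1g1* and *Atp6v1b2* had none. The median over all 32851 windows was 6 CG pairs. *Atp6v1g3* and *Atp6v0a4* had 1 each and *Atp6v1b1* had 3, *Atp6v1a* had 8, *Atp6v1e1* 12, *Atp6v1c2* 15 and the 3 starts of *Atp6v0c* 15, 25 and 16. The forkhead core occurred on either strand in 3.17% of all windows and in 1 of the 9 member windows, that of *Atp6v1b1*, where it began 98 bases before the start (-98) on the opposite strand. Such a match describes the letters of this window and nothing about what binds there.

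Among the V1 members, *Atp6v1g3*, which encodes a subunit of the stalk that links the V1 and V0 sectors, was the most abundant. It had 7062 UPM (6926 to 7199, 10322 UMIs) in clear cells and ranked 5th of all genes there. Principal cells, the main secretory epithelium, had 38.7 UPM (34.8 to 42.8), basal cells 26.5 UPM, and muscle, stromal and endothelial cells 1.31 to 3.59 UPM. Immune cells came next to clear cells at 56.7 UPM, but all 33 of those UMIs lay in 1 of 195 cells. The clear cell level was 125 times (88.6 to 181) that of immune cells, and *Atp6v1g3* ranked 2nd of 7641 genes by this ratio. With called doublets left out, the ratio to the next cell type was 301.

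*Atp6v1b1*, the B subunit isoform of acid-secreting cells, had 178 UPM (157 to 201, 260 UMIs) in clear cells. It had 0 UMIs in muscle, endothelial and immune cells, 7 UMIs in principal cells, 7 in basal cells and 2 in stromal cells. These are counts left after the authors subtracted ambient RNA. The part of that step in such zeros, here and for *Atp6v0a4*, was not tested. With immune cells set at a floor of 3 UMIs over the group, clear cells were 34.5-fold (11.7 to 168) higher. The ratio to the floor was 15.7-fold without the vas deferens library, which leaves fewer immune cell UMIs to set the floor. *Atp6v1c2*, an isoform of subunit C, which holds V1 on V0, had 257 UPM (231 to 284) in clear cells and 13.5 UPM (11.3 to 16.0) in principal cells, a ratio of 19.0 (15.5 to 23.4). It was the tissue-restricted member with the smallest such ratio, 11.2 as a mean over cells and 12.5 without the vas deferens library.

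*Atp6v0a4*, the a subunit isoform whose loss is known to cause renal tubular acidosis, had 131 UPM (113 to 151, 192 UMIs) in clear cells. No UMI was found in muscle, endothelial or immune cells. Clear cells were 25.5-fold (8.59 to 125) higher than the floor of 3 UMIs in immune cells. Without the vas deferens library this ratio was 11.2-fold, and it was 17.3-fold without the corpus library. The gene overlaps *Tmem213* on the opposite strand, which had 135 of its 148 UMIs in clear cells, and the sources used here do not say whether the counting used strand. *Atp6v0d2*, an isoform of the d subunit of the central stalk, known from osteoclasts, had 528 UPM (492 to 567) in clear cells against 6.17 UPM (4.70 to 7.96) in principal cells, a ratio of 85.6 (65.7 to 114). With equal weight to libraries this ratio was 55.9. Without the vas deferens library, and as a mean over cells, immune cells at the floor of 3 UMIs came next. Clear cells were then 43.7-fold and 31.0-fold higher.

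**Figure D1:**
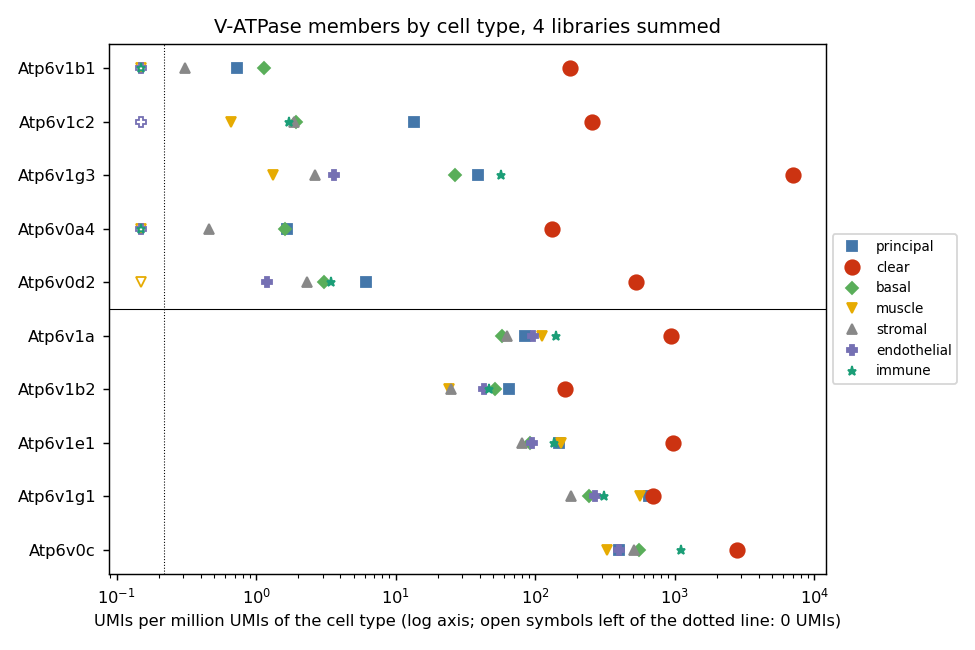
Level of each member in the 7 cell types, in UMIs per 1000000 UMIs of the cell type on a log axis, with the 5 tissue-restricted members above the line and the 5 others below it; open symbols at the left are cell types with 0 UMIs and can overlie each other. The clear cell symbol stands apart from all others for the tissue-restricted members and touches that of principal cells for Atp6v1g1.

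The 5 members of most cells were all detected in all 7 cell types, and they parted into 3 patterns. *Atp6v1a*, the catalytic A subunit, had 942 UPM in clear cells, 6.69 times (5.35 to 8.46) the next level (4.33 as a mean over cells), and *Atp6v1e1*, the E subunit of the peripheral stalk, had 976 UPM (926 to 1028), 6.38 times (5.56 to 7.37) the 153 UPM of muscle cells. The muscle, principal and immune levels of *Atp6v1e1* had overlapping intervals. *Atp6v1b2*, the B subunit of most tissues, had 162 UPM (142 to 184) in clear cells and 64.4 UPM (59.4 to 69.7) in principal cells, a ratio of 2.52 (2.16 to 2.93) that was 1.51 without the cauda library. *Atp6v0c*, the proteolipid of the proton-carrying ring, was 2.52 times (2.31 to 2.74) as high in clear cells as in immune cells; it has 2 named pseudogene copies, and reads that map to several places were not counted by the authors.

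*Atp6v1g1*, the G subunit of most cells, showed no excess in clear cells over the next cell type. It had 692 UPM (650 to 736) there, 652 UPM (636 to 669) in principal cells and 567 UPM (530 to 606) in muscle cells, and the ratio of the first pair was 1.06 (0.992 to 1.13). It was 0.888 without the cauda library. By library it was 0.797 (0.672 to 0.939) in caput and 2.15 (1.90 to 2.43) in cauda.

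A gene was called restricted when clear cells held 20 or more UMIs of it and its level there was 4-fold or more that of each other type. By this rule 7 of the 10 members were restricted to clear cells, all 5 tissue-restricted isoforms together with *Atp6v1a* and *Atp6v1e1*. The paper identified its clear cells by *Atp6v0c*, *Atp6v1e1* and *Atp6v1a*, so for these members the label and the level are not independent. Over all 7641 genes with 20 UMIs in clear cells, 169 met the rule (2.21%). The median ratio of clear cells to the next cell type was 34.5 over the tissue-restricted members, a value set by *Atp6v1b1* against the floor. It was 2.52 over the other members and 0.854 over all 7641 genes. Summed, the tissue-restricted members made up 8156 UPM of clear cells and 35.1 UPM of all other cells, a ratio of 232 (217 to 249), or 119 as a mean over cells. Without *Atp6v1g3* the ratio was 93.1 (82.1 to 106). The members of most cells summed to 5542 UPM in clear cells and 1120 UPM elsewhere, a ratio of 4.95 (4.83 to 5.07).

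The remaining subunits had a median ratio to the next cell type of 1.83, with a range of 0.484 to 3.29. None of the 14 other subunit and accessory genes met the rule; of the 12 with 20 UMIs in clear cells, 8 were above the next cell type with an interval that left out 1. *Atp6v1h*, the regulatory H subunit, was highest of these at 3.29 times (2.44 to 4.50) the muscle level. *Atp6v0e*, a small membrane subunit, followed at 2.70 and *Atp6v0b*, a second proteolipid of the ring, at 2.70. Among these remaining genes, the other isoforms of subunits C, d and a did not show this. *Atp6v1c1* (0.979, 0.744 to 1.29), *Atp6v0d1* (0.988, 0.815 to 1.19) and *Atp6v0a2* (1.02, 0.685 to 1.53) were near the next cell type, *Atp6v0a1* was lower in clear cells (40.4 UPM) than in principal cells (83.3 UPM), and *Tcirg1*, the a subunit of osteoclasts, was highest in immune cells at 51.5 UPM against 9.58 UPM.

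Summed by subunit, every subunit of the pump was higher in clear cells than in all other cells, but not equally. The ratio was 18.1 (17.6 to 18.6) for G, 12.4 (11.6 to 13.3) for A, 8.98 for d, 8.53 for E, 7.07 for B and 6.74 for C. It was lower for c (5.80), e (4.87), D (4.02), c″ (3.99), H (3.73), F (3.36) and a (3.02, 2.67 to 3.40). The a subunit was thus lowest although *Atp6v0a4* had 29 UMIs in all other cells together, where *Atp6v0a1* had 1017.

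Of 15 factors that assemble the pump or associate with it, 11 had 20 UMIs in clear cells and none met the rule. *Dmxl1* and *Dmxl2*, parts of the rabconnectin complex that helps to join V1 to V0, had the highest ratios, 3.92 (3.04 to 5.10) and 3.99 (2.31 to 7.26) over muscle cells, and *Rnasek*, a small protein found with V0, had 2.45 (2.32 to 2.58). The lowest of the 11 were *Ncoa7* (0.974), *Rogdi* (0.918) and *Vma21* (0.817, 0.632 to 1.05), a chaperone of V0 assembly. Among 4 regulators, *Foxi1* met the rule at 662 UPM in clear cells, 42.8 times (22.4 to 93.9) the next level, while the carbonic anhydrases *Car2* and *Car12*, which supply protons and bicarbonate, were 1.22 and 1.40 times the basal cell level. *Adcy10*, the bicarbonate-sensing adenylyl cyclase, had 2 UMIs in clear cells, which is under the floor.

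**Figure D2:**
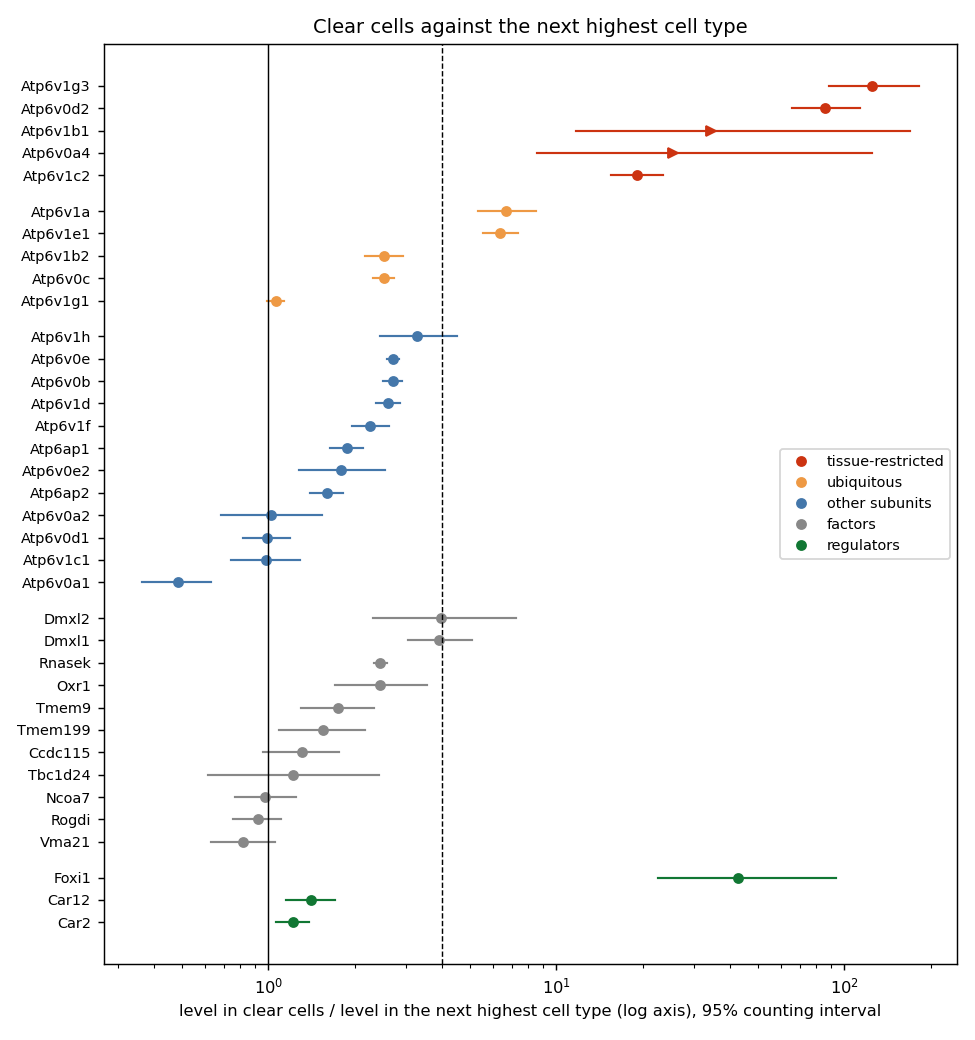
Level in clear cells divided by the level in the next highest cell type, on a log axis with 95% counting intervals, for every listed gene with at least 20 UMIs in clear cells. Arrowheads mark ratios to a floor of 3 UMIs, the solid line is 1 and the dashed line the 4-fold rule. The 5 tissue-restricted members lie between 19.0 and 125, and of all other listed genes only Atp6v1a, Atp6v1e1 and Foxi1 lie beyond the dashed line.

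Share of cells with a UMI was compared after each cell was thinned to 1000 UMIs, which kept 238 clear and 1894 principal cells and left out 110 and 2062 shallower ones. *Atp6v1g3* was found in 88.7% (83.9 to 92.4) of clear cells and in 1.53% (1.03 to 2.19) of principal cells. *Atp6v0d2* was found in 37.4% and 0.581%, *Atp6v1c2* in 18.5% of clear and 19 of 1894 principal cells, *Atp6v1b1* in 15.1% and 0.106%, and *Atp6v0a4* in 10.9% and 0.264%. Without thinning, *Atp6v1g3* was found in 72.1% of 348 clear cells with a median of 4430 UMIs and in 1.97% of 3956 principal cells with a median of 934.5 UMIs. Members of most cells were found in both, *Atp6v0c* in 86.6% of clear and 23.5% of principal cells and *Atp6v1g1* in 44.5% (38.1 to 51.1) and 33.5% (31.4 to 35.7).

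The low-UMI clear cells had both main G subunit isoforms at lower levels than clear cells as a whole. They held 45 UMIs of *Atp6v1g3* in 14 of 54 cells and no UMI of *Atp6v1g1*. *Atp6v1a* was found in 15 and *Atp6v1e1* in 14 of them. *Atp6v1g3* stood at 1226 UPM in caput, 1386 UPM in corpus and 1255 UPM in cauda, against 7062 UPM in clear cells. It had 0 UMIs in the 13 vas deferens cells, which with the 6 caput cells held few or no clear markers. The upper limit for *Atp6v1g1* in their 43659 UMIs was 84.5 UPM, under the 692 UPM of clear cells as a whole. The removal of ambient counts by the authors took 3.54% of UMIs over all cells. The paper assumed a like amount of ambient RNA in the cells of a library, so that percentage does not describe the low-UMI clear cells. Their median was 698.5 UMIs after removal. It was 279 UMIs in the 6 caput cells, although every cell had at least 350 UMIs before removal. The part of the removal in the zero of *Atp6v1g1* was not tested.

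In clear cells the 5 tissue-restricted isoforms were set against the other isoforms of the same subunit, as a percentage of all UMIs of that subunit. This share rests on capture being alike for the isoforms, so it is compared between groups of cells only. *Atp6v1g3* made up 91.0% (90.5 to 91.6) of the G subunit UMIs of clear cells, *Atp6v0d2* 85.5% (83.0 to 87.7) of d, *Atp6v1c2* 78.0% (74.0 to 81.6) of C, *Atp6v0a4* 60.6% (55.0 to 66.0) of a and *Atp6v1b1* 52.3% (47.8 to 56.8) of B. In principal cells the same shares were 5.58%, 6.36%, 18.9%, 1.36% and 1.12%.

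The share of the B and a isoforms was not the same along the duct, whereas that of G and d changed little across the epididymis. In main clear cells *Atp6v1b1* made up 80.5% (65.1 to 91.2) of 41 B subunit UMIs in caput, 61.2% (48.5 to 72.9) of 67 in corpus, 46.7% (40.6 to 53.0) of 261 in cauda and 32.1% (15.9 to 52.4) of 28 in vas deferens. The caput interval lay above the cauda interval. *Atp6v0a4* made up 83.3% (62.6 to 95.3) of 24 a subunit UMIs in caput, 69.2% (56.6 to 80.1) of 65 in corpus, 39.1% (30.2 to 48.7) of 115 in cauda and 56.5% (34.5 to 76.8) of 23 in vas deferens, and here both the caput and the corpus interval lay above that of cauda. *Atp6v1g3* stayed at 92.7% in caput, 92.0% in corpus and 90.2% in cauda and was 82.8% (79.6 to 85.8) in vas deferens, and *Atp6v0d2* was 86.0%, 88.6%, 85.1% and 81.8%. *Atp6v1c2* went from 65.5% (45.7 to 82.1) in caput to 84.1% (69.9 to 93.4) in vas deferens with overlapping intervals.

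The order of caput, corpus and cauda was the same without called doublets (80.5%, 60.0% and 47.7% for *Atp6v1b1*, and 83.3%, 71.4% and 38.9% for *Atp6v0a4*) and in cells with at least 1000 UMIs (82.5%, 65.1% and 47.5%, and 83.3%, 72.1% and 38.9%). Both were checks added after the values were seen. In the 12 vas deferens cells left without called doublets, *Atp6v1g3* made up 67.8% (58.5 to 76.2) of 115 G subunit UMIs, and *Atp6v0d2* held 1 of 7 d, *Atp6v1b1* 1 of 5 B, *Atp6v1c2* 2 of 3 C and *Atp6v0a4* 0 of 7 a subunit UMIs. In the Amylin-positive clear cells, *Atp6v1b1* made up 60.5% (44.4 to 75.0) in caput and 57.4% (42.2 to 71.7) in corpus with overlapping intervals, and *Atp6v0a4* made up 74.4% and 79.5%.

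**Figure D3:**
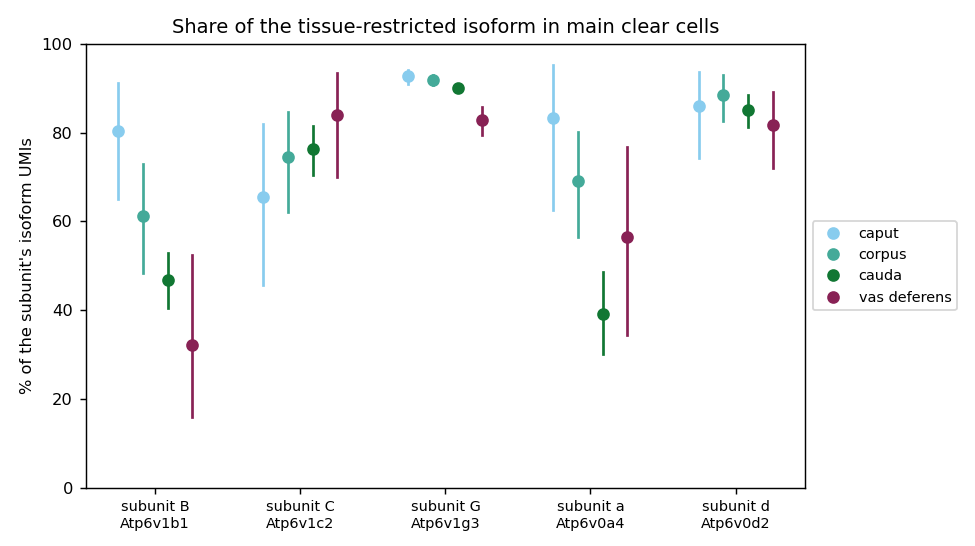
Percentage of a subunit's isoform UMIs that came from the tissue-restricted isoform in the main clear cells of each library, with exact 95% binomial intervals; 1 library per region, and the 12 of 25 vas deferens cells not called as doublets together held more principal than clear markers. Subunits G and d stay between 85.1% and 92.7% from caput to cauda, and the vas deferens values of 82.8% and 81.8% become 67.8% of 115 UMIs and 1 of 7 UMIs without called doublets, while Atp6v1b1 runs from 80.5% in caput to 46.7% in cauda and Atp6v0a4 from 83.3% to 39.1%.

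The levels behind these shares moved in different ways. *Atp6v1b2* stood at 65.0 UPM (8 UMIs) in caput, 100.1 UPM (26 UMIs) in corpus and 246 UPM (139 UMIs) in cauda main clear cells, a cauda to caput ratio of 3.78 (1.87 to 8.93). *Atp6v1b1* had 268 UPM, 158 UPM and 216 UPM in the same libraries, and its cauda to caput ratio of 0.805 (0.544 to 1.22) held 1. Between corpus and caput it was *Atp6v1b1* whose ratio left out 1 (0.589, 0.363 to 0.961). Cell by cell, 28 of the 94 cauda main clear cells had *Atp6v1b2* without *Atp6v1b1*, 12 had *Atp6v1b1* alone and 38 had both, against 2, 11 and 6 of 28 in caput. In corpus these counts were 12, 14 and 9 of 69. Neither isoform was found in 16 cauda, 9 caput and 34 corpus cells. These cells were not thinned, and their median depth was 6541.5 UMIs in cauda, 5059.5 in caput and 1796 in corpus. A cell with 1 isoform alone can therefore be one in which the other was missed.

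Both kinds of a subunit isoform differed between regions. *Atp6v0a4* had 163 UPM in caput, 173 UPM in corpus and 79.6 UPM (58.0 to 106) in cauda, a cauda to corpus ratio of 0.459 (0.297 to 0.711). The other a isoforms together had 32.5 UPM (4 UMIs) in caput, 77.0 UPM (20 UMIs) in corpus and 124 UPM (70 UMIs) in cauda, a cauda to caput ratio of 3.81 (1.42 to 14.4). *Atp6v1c2* was higher in cauda (329 UPM) than in caput (154 UPM) and corpus (181 UPM), with ratios of 2.13 (1.33 to 3.62) and 1.82 (1.31 to 2.56). *Atp6v1a* was highest in cauda at 1257 UPM, against 739 UPM and 862 UPM. *Atp6v1g3* had 7671, 7702 and 7326 UPM in the 3 regions and *Atp6v1e1* 959, 943 and 1013 UPM, with all intervals of the ratios between these regions holding 1.

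Between cauda and caput, 3 of the 10 members differed by at least 2-fold (*Atp6v1b2*, *Atp6v1c2* and *Atp6v0a4*), beside 787 of 4612 genes (17.1%) with at least 20 UMIs in either group. Between cauda and corpus 2 of 10 did (*Atp6v1b2* and *Atp6v0a4*), beside 529 of 4650 genes (11.4%). The median cauda to caput ratio of all genes was 1.12. These counts are not read as a property of the members, and a difference between libraries cannot be told apart from one between regions.

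In the vas deferens the main clear cells had *Atp6v1g3* at 3545 UPM (3240 to 3871), below the 7105 to 7553 UPM of the cauda interval, and *Atp6v1b1* at 64.2 UPM (29.4 to 122). The 13 cells called as doublets held 419 of the 497 *Atp6v1g3* UMIs, 71 of the 72 *Atp6v0d2* UMIs and all 13 *Atp6v0a4* UMIs. In them alone *Atp6v1g3* had 4708 UPM (4268 to 5181) and *Atp6v0d2* 798 UPM (623 to 1006). In the other 12 cells *Atp6v1g3* was found in 2, and 71 of its 78 UMIs came from 1 cell. The part that cells of another type played in the lower vas deferens level was not tested.

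**Figure D4:**
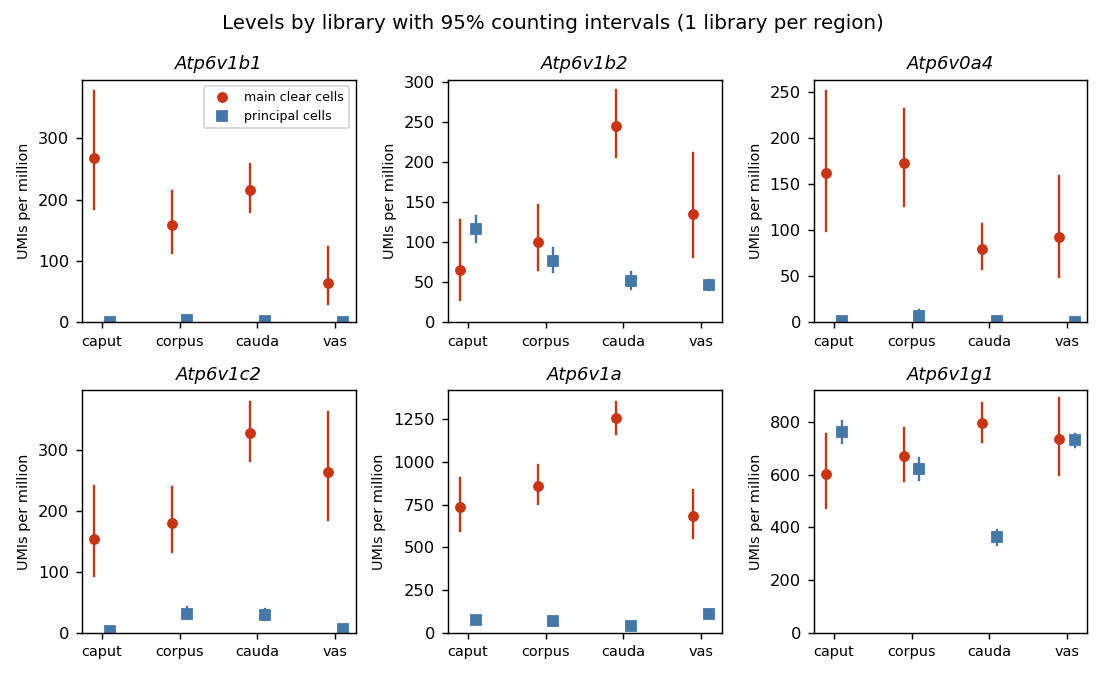
Levels of 6 members in main clear cells (circles) and principal cells (squares) of each library, in UMIs per 1000000 with 95% Poisson intervals; each axis starts at 0 and each region is 1 library. Atp6v1b2 is 65.0 in caput and 246 in cauda clear cells, and 116 and 51.2 in the principal cells of the same libraries.

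For *Atp6v1b2* and *Atp6v1g1*, principal cells did not follow the regional order of clear cells. This did not hold for every member. *Atp6v1c2* was lowest in caput in both, at 3.48 UPM in principal and 154 UPM in main clear cells. *Atp6v1b2* in principal cells had 116 UPM (101 to 133) in caput, 76.8 UPM in corpus, 51.2 UPM (41.1 to 63.0) in cauda and 46.6 UPM in vas deferens, the reverse of clear cells from caput to cauda. In stromal cells *Atp6v1b2* was 21.1 to 28.4 UPM in all 4 libraries with overlapping intervals. Basal cells had the same order as clear cells from caput to cauda. Their *Atp6v1b2* level was 40.4 UPM (30.6 to 52.3) in caput, 47.5 UPM in corpus and 76.3 UPM (59.8 to 96.0) in cauda. In vas deferens basal cells it was 51.8 UPM. *Atp6v1g1* in principal cells had 760 UPM in caput and 362 UPM in cauda, and 605 UPM and 777 UPM in the clear cells of these libraries.

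The Amylin-positive and main clear cells of the same library were close in most members. In caput *Atp6v1g3* was 1.15 times (1.05 to 1.25) and *Atp6v1c2* 1.89 times (1.07 to 3.45) as high in Amylin-positive cells. In corpus the intervals of both ratios held 1. *Atp6v0c* was 1.36 times (1.22 to 1.52) as high and *Atp6v1a* 0.699 times (0.553 to 0.880) in corpus; in caput these ratios were 1.02 and 1.13 with intervals that held 1.

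Outside clear cells the tissue-restricted members were rare and unevenly spread. *Atp6v1g3* had 589 UMIs in 114 of 8532 other cells, 60.8% of them in 10 cells and 40.9% in the 161 cells called as doublets. *Atp6v1c2* was different, with 155 UMIs in 140 cells, 14.2% of them in 10 cells and 6.45% in called doublets. No cell outside the clear cells had 5 or more UMIs of *Atp6v1c2*, whereas 16 had as many of *Atp6v1g3*.

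Most *Atp6v1c2* outside clear cells came from principal populations 6 to 10, whose cells were mostly from corpus and cauda. These 5 populations had 39.9, 37.3, 33.2, 33.1 and 34.0 UPM, while the other 10 had 0 to 11.1 UPM. The range 6 to 10 was set after these values were seen, and it does not hold all principal cells of corpus and cauda. Populations 4 and 5 had 55 of 74 and 172 of 239 cells from corpus, and population 11 had 141 of 244 from cauda. Their *Atp6v1c2* levels were 0, 8.26 and 11.1 UPM. Together the 5 populations held 94 UMIs in 83 of 1534 cells, of which 7 UMIs lay in called doublets, and their level of 35.4 UPM was 13.8% of that in clear cells. For *Atp6v1g3* the same 5 populations held 1.18% of the clear cell level, and populations 9 and 10 had 0 and 2 UMIs. Of the 222 *Atp6v1g3* UMIs in these 5 populations, 154 lay in called doublets. The C subunit of principal cells was accordingly 42.3% (32.7 to 52.4) *Atp6v1c2* in corpus and 49.5% (39.5 to 59.5) in cauda, but 4.65% (1.73 to 9.85) in caput and 8.07% (5.43 to 11.5) in vas deferens.

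**Figure D5:**
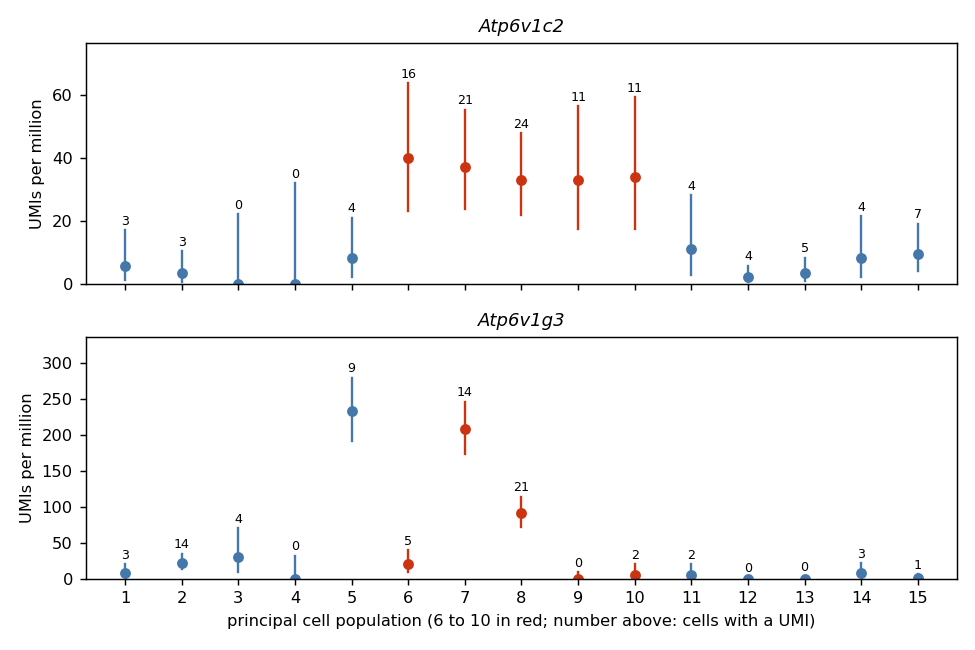
Levels of Atp6v1c2 and Atp6v1g3 in the 15 principal cell populations, in UMIs per 1000000 with 95% Poisson intervals, with the number of cells that held a UMI above each interval. Atp6v1c2 lies at 33.1 to 39.9 in populations 6 to 10 and at or under 11.1 elsewhere, while Atp6v1g3 peaks in populations 5 and 7, where 9 and 14 cells held it. Called doublets held 32 of the 113 Atp6v1g3 UMIs of population 5 and 115 of the 134 of population 7.

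*Atp6v0d2* and the other a subunit isoforms also had unequal levels among the principal populations. *Atp6v0d2* stood at 29.6 UPM (24 cells) in principal population 2 and 36.1 UPM (6 cells) in population 3, and it made up 18.8% (13.6 to 25.1) of d subunit UMIs in caput principal cells against 0.183% in those of the vas deferens. *Atp6v0a1* reached 116 UPM in population 10 and stood at 61.7 to 102 UPM in 11 of the other populations. *Tcirg1* was concentrated in population 10 at 102 UPM (21 cells) and population 8 at 56.9 UPM (36 cells), and it stood at 0 to 27.6 UPM in the others.

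The genes whose levels followed the summed tissue-restricted members most closely over the 34 annotated populations were found by Pearson correlation of log2(UPM + 10), over populations that share libraries and depth. Only genes with at least 20 UMIs in clear cells, where these members are high, were candidates, so the list is a description. *Atp6v1g3* gave 10322 of the 11921 UMIs of this sum in clear cells, so the pattern is largely that of 1 member. *Tfcp2l1*, a transcription factor known from renal intercalated cells, was first (r = 0.91), followed by *Foxi1* (0.90) and *Tdrp* (0.90). The anion exchanger *Slc26a3*, *Galnt13*, *Rragd* and *Vsig1* had 0.88 each. For the members of most cells the nearest were *Stx7*, a syntaxin of late endosomes (0.81), *Foxi1* (0.81), *Tmprss13* (0.80) and *Atp6v1f*, the F subunit (0.78), and the other 4 of the first 8 were *Plcg2*, *Wdr72*, *Blnk* and *S100g*.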

How the data were processed

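Single-cell 3′ RNA libraries of caput, corpus, cauda and vas deferens, 1 per region, were analysed from the deposited UMI counts. Per the labels and the methods of the study, the authors aligned reads to mm10 with HISAT2 (version 2.0.4), ignored reads with several positions, counted UMIs per gene, filtered cells by UMIs and subtracted ambient RNA, which took 3.54% of UMIs. In the deposited cell table the cells had 350 to 14999 UMIs. Annotated cell types were theirs. The members and gene lists were chosen with earlier results of these data known.

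From these counts, UMIs were summed per group of cells and divided by the group's total, with exact Poisson intervals for levels, conditional binomial intervals for ratios and Clopper-Pearson intervals for shares, in Python 3.11.15 with scipy 1.17.1. Totals per library were 4408989 to 10744928 UMIs. A gene was called restricted at 20 UMIs in clear cells and 4 times every other cell type, with a floor of 3 UMIs. Doublets were called by comparing each cell with simulated pairs of its own library (178 of 8880 cells) and were kept except where said. The caller recovered 46.2% of simulated doublets of mixed cell type in caput and up to 69.2% in vas deferens. Cells left without called doublets can therefore still hold doublets. No p-value was computed, since each region had 1 library. All 10 members were named; other genes were named as isoforms of the same subunits, as the 5 highest and 3 lowest ratios of the other lists, or as the 8 nearest in pattern (1 is not reported here), and beyond this rule *Atp6v1h*, *Car12*, *Adcy10* and *Tmem213* after their values were seen. The rule was tested on simulated data. In all 71 alternatives were tried, and 2 more were added after these values were seen. Gene overlaps came from the GENCODE vM21 annotation. Per-sample columns left unused numbered 0.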

Additional observations from a re-analysis of the deposited data

Results flagged for a closer look

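*Atp6v1g1* was flagged because the direction of clear against principal cells was not the same in all libraries. It was lower in clear cells in caput (0.797, 0.672 to 0.939) and higher in cauda (2.15, 1.90 to 2.43), with 605 UPM and 777 UPM in clear cells and 760 UPM and 362 UPM in principal cells. The difference was not tested, since each region had 1 library. In corpus and vas deferens the ratios were 1.03 and 0.942 with intervals that held 1. All groups by region were single libraries, so no outlier could be sought.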

How the results depend on the processing

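The count of 7 restricted members was 9 at 2-fold, 5 at 8-fold and 7 under all 14 other alternatives. The ratio of summed tissue-restricted members, 232 as reported, was 257 in cells with at least 1000 UMIs, 335 without called doublets, 119 as a mean over cells, 187 with equal weight to libraries, and 162 to 324 with 1 library left out. The ratio of the other members, 4.95 as reported, was 4.80 as a mean over cells, 4.63 when genes above 1 percent of UMIs left the denominator, and 4.59 to 5.47 with 1 library left out. Without the Amylin-positive clear cells the isoform share was 90.5% for G and 54.7% for a. With 1 library left out it ranged from 48.7% to 60.4% for B, from 53.7% to 72.6% for a and from 90.5% to 91.6% for G, and the library that moved B, a and G most was that of the cauda. No ratio whose interval left out 1 changed direction. The isoform share of subunit E was not computed, because *Atp6v1e2* was not among the genes analysed here. No paired analysis was possible because each region had 1 library. Depth limited *Atp6v1b1*, *Atp6v0a4* and *Atp6v1b2* most, with as few as 8 UMIs in a region, and intervals cover counting error only.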
